A study of Rattus norvegicus with 18 samples.

Results

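Small RNA tags of 18 to 19 nt were examined over the development of the rat cortex. They are the shortest tags kept in the clean reads, and a tag was included when it was counted in both sequencing runs of at least 1 tissue sample. In all 53265 such tags were found, of 213410 tags of every length that met the same condition and of 929005 distinct tags of 18 to 19 nt in any library. The tissue samples held between 8054 of them (P3) and 26173 (E13), and 1142 were present in all 18 libraries. Tissue came from Sprague Dawley rats and was taken at 8 stages, as forebrain by the labels (whole cortex by the study's methods) on embryonic days 10 and 13 (E10, E13) and as somatosensory cortex on embryonic day 17 (E17) and postnatal days 0, 3, 7, 14 and 28 (P0 to P28). Of the stages, P0 was represented by 2 tissue samples and the rest by 1 each. Every tissue sample was sequenced in 2 technical runs, and no treatment or genotype differed. At E10 and E13 the stage and the tissue taken cannot be told apart, and how many animals went into a tissue sample is not given in the sources used here. The libraries held 4899010 to 16590379 clean reads, of which 491093 to 3288959 were reads of these short tags.

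The E10 run 2 library stood apart from the other 17. Its short tags took 2.99% of the clean reads, against 12.1% to 33.5% elsewhere. Across short tags of at least 10 TPM (reads of a tag per 1000000 clean reads of its library), log2 levels in both runs of E10 correlated with r = -0.20, against 0.40 to 0.74 across tags in the other 8 tissue samples. Its values are therefore given apart from those of the other 17 where ranges over libraries are described, and trends that moved with it are also given with E10 taken from run 1 alone or left out.

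MicroRNAs (miRNAs) are small RNAs cut from hairpin precursors by the nucleases Drosha and Dicer and bound by Argonaute proteins. Bases 2 to 8 from the 5′ end, the seed, select the target messenger RNAs, whereas the 3′ end is less fixed and can be trimmed or extended, so that 1 miRNA is read at several lengths with the same seed. The let-7 family is known for its rise in differentiating cells, and miR-124, miR-9 and miR-128 are known as abundant miRNAs of the nervous system. A short tag is called a prefix tag below when its bases are the 5′ part of a tag of 21 to 24 nt in the same library, that is, a form of the longer tag that ends earlier at its 3′ side.

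The let-7 members and miR-98 are shown because they share 1 seed and differ at base 19, where the most abundant short tag of these data ended. Mature sequences are from RefSeq (build GRCr8, written as DNA, 5′ to 3′), with capitals at the seed and at base 19, the last base of the 19 nt tag.
let-7a-5p: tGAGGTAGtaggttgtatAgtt
let-7b-5p: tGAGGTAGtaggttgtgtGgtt
let-7c-5p: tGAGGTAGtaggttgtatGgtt
let-7d-5p: aGAGGTAGtaggttgcatAgtt
let-7e-5p: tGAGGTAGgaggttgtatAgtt
let-7f-5p: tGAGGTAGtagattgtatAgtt
let-7g-5p: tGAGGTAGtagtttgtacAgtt
let-7i-5p: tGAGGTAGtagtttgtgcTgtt
miR-98-5p: tGAGGTAGtaagttgtatTgtt
The mature let-7c is encoded at chr11:29688127-29688148 (Mirlet7c1, plus strand) and at chr7:118683636-118683657 (Mirlet7c2, plus strand), let-7b at chr7:118684044-118684065 (Mirlet7b, plus strand) and let-7i at chr7:60527935-60527956 (Mirlet7i, minus strand). Tags of 18 nt cannot be assigned between let-7a and let-7c, which share their first 18 bases, so that values of these 2 miRNAs rest on tags of 19 nt.

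Other miRNAs are shown because their reads of 18 and 19 nt far outnumbered those of 21 to 24 nt (miR-101a, miR-101b, miR-382-3p and miR-323-3p), because a pair with 1 seed differed (miR-221 and miR-222), because their short tags or short share changed with stage (miR-128, miR-130b, miR-301b and miR-219a-2-3p), or as an abundant neuronal miRNA read mostly at full length (miR-9a-5p). Capitals mark the seed and the last base of the 18 or 19 nt tag.
miR-101a-3p: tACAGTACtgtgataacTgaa
miR-101b-3p: tACAGTACtgtgatagcTgaa
miR-382-3p: aATCATTCacggacaacaCtt
miR-323-3p: cACATTACacggtcgaccTct
miR-221-3p: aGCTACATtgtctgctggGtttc
miR-222-3p: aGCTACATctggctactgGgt
miR-9a-5p: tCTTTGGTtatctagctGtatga
miR-128-3p: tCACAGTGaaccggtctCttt
miR-130b-3p: cAGTGCAAtgatgaaagGgcat
miR-301b-3p: cAGTGCAAtggtattgtCaaagc
miR-219a-2-3p: aGAATTGTggctggacatCtgt
The pairs miR-101a with miR-101b, miR-221 with miR-222 and miR-130b with miR-301b each have a common seed. In GRCr8 the mature miR-101b lies at chr1:236273982-236274002 (Mir101-2, plus strand), miR-101a at chr5:121081691-121081711 (Mir101a, minus strand), and miR-382-3p and miR-323-3p lie on chromosome 6, at chr6:134569992-134570012 and chr6:134546994-134547014. The miR-221 and miR-222 sequences are at chrX:6023246-6023268 and chrX:6022682-6022702.

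The first question was how much of each library the short tags took. In run 1 they took 19.1% of clean reads at E10, 21.3% at E13, 19.3% at E17, 33.5% and 22.5% in the P0 tissue samples, 18.9% at P3, 26.8% at P7, 22.6% at P14 and 17.6% at P28. In run 2 the values were 2.99%, 13.6%, 21.3%, 15.7% and 16.7%, 12.1%, 19.3%, 20.8% and 16.3% in the same order. Run 1 was the higher run in 8 of 9 tissue samples, all but E17. The mean was 22.4% ± 4.99 (SD, n = 9) in run 1 and 15.4% ± 5.59 in run 2, a difference of 6.97 percentage points (exact two-sided sign-flip permutation test over tissue samples, p = 0.0156). Without E10 it was 5.83 points (exact p = 0.0313, n = 8), and for tags of 19 nt alone it missed the threshold at 3.11 points (exact p = 0.0781, n = 9). The 95% Wilson intervals of these shares reached at most 0.037 points to either side and cover counting error only, as reads made by PCR are not independent molecules. The runs also differ in the longest tags kept, up to 39 nt, so that the clean reads behind these shares differ in length range. The part of this in the run difference was not tested.

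No change of the short share with stage was found. The mean of both runs ranged from 11.1% at E10 to 24.6% in P0 replicate 1, and the P0 tissue samples, the only biological replicates, stood at 24.6% and 19.6%. Over the 9 tissue samples Pearson's r with the stage order was 0.40 (exact permutation p = 0.293, adjusted p = 0.410 over 14 correlations) and Spearman's rho 0.27 (exact p = 0.483). Without E10 and P28, the outermost stages, r was 0.32 (exact p = 0.483, n = 7). Without E10 alone it was -0.00458 (exact p = 0.991, n = 8), and with E10 from run 1 alone 0.045 (exact p = 0.907, n = 9). By run it was 0.02 in run 1 (exact p = 0.970) and 0.58 in run 2 (exact p = 0.10).

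Nearly all reads of short tags were reads of prefix tags. In the 17 libraries other than E10 run 2, prefix tags held 96.5% to 99.5% of short reads, with a median of 99.2%, and in E10 run 2 they held 88.9%. Counted as distinct tags the share was far lower. Of the short tags of a tissue sample, 37.9% (E13) to 57.3% (P3) were prefix tags in both runs, 17.0% to 25% in 1 run only, and the rest in neither. Across all tissue samples 19640 of the 53265 tags were prefix tags in both runs of at least 1 tissue sample. The longer tag was not always the more abundant form: short tags that had fewer reads than their most abundant longer tag held 21.5% to 74.2% of short reads in these 17 libraries and 11.2% in E10 run 2.

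The prefix share of short reads rose with stage when both runs were averaged, but not within run 1. The tissue means went from 93.8% at E10 and 97.1% at E13 to 99.4% at P28. Pearson's r was 0.73 (exact permutation p = 0.00672, adjusted p = 0.0314 over 14 correlations, n = 9) and rho 0.73 (exact p = 0.0313). In run 1 alone r was 0.48 (exact p = 0.207), and in run 2 alone 0.66 (exact p = 0.0026), with rho at 0.93 (exact p = 0.000816). With E10 taken from run 1 alone r was 0.63 (exact p = 0.0534), and without E10 and P28 it was 0.67 (exact p = 0.0968, n = 7). Without E10 r was 0.66 over both runs (exact p = 0.0435, adjusted p = 0.152, n = 8) and 0.82 in run 2 alone (exact p = 0.00372, adjusted p = 0.026). When the longer tag was also required to have more reads, r was 0.28 (exact p = 0.464). The prefix share did not differ detectably between the runs, at 98.8% ± 0.888 in run 1 and 97.9% ± 3.4 in run 2 (SD, n = 9, exact sign-flip permutation p = 0.867).

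The leading short tag was the 19 nt form of let-7c, first among short tags in 8 of 9 tissue samples and second at E10. In run 1 it was at 21588 TPM at E10, 32690 at E13, 55607 at E17, 83328 and 63857 at P0, 49715 at P3, 62235 at P7, 42097 at P14 and 33959 at P28. In run 2 it was at 18 TPM at E10, 27923 at E13, 64759 at E17, 35117 and 51384 at P0, 33015 at P3, 44502 at P7, 57365 at P14 and 29971 at P28. It led the short tags in 16 of 18 libraries. The exceptions were E10 run 1, led by a tag of miR-101b, and E10 run 2, led by a tag with no RefSeq miRNA match at 1548 TPM. The level of the let-7c tag did not change detectably with stage, with a slope of 0.15 ± 0.13 (SE) on the log2 scale per stage step and an adjusted p of 0.455 (edgeR quasi-likelihood test over 36485 tags of all lengths, Benjamini-Hochberg). Without E10 the slope was -0.04.

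The next tags in abundance were an 18 nt tag of miR-124, among the first 3 in 8 tissue samples, and the 19 nt tag of let-7b, among the first 3 in 7. miR-124 is not in the RefSeq table used, and its tags were named from the study's PCR primer for this miRNA. The miR-124 tag was at 7675 TPM (E10) to 50178 TPM (P0 replicate 1) in run 1 and, apart from 13.1 TPM at E10, at 5584 TPM (E13) to 33437 TPM (P0 replicate 1) in run 2. The let-7b tag was at 1733 TPM (E13) to 14513 TPM (P0 replicate 2) in run 1 and, apart from 6.3 TPM at E10, at 6976 TPM (E13) to 34731 TPM (P7) in run 2. Its run 2 level was the higher one in every tissue sample but E10. Neither tag changed with stage past the threshold, with slopes of 0.23 ± 0.16 for miR-124 (adjusted p = 0.326) and 0.34 ± 0.19 for let-7b (adjusted p = 0.220, both edgeR). Without E10 the slopes were 0.01 and 0.10.

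At E10 and E13 tags of miR-101 were among the first 3, and these began 1 base upstream of the RefSeq mature miRNA. The 19 nt tag of miR-101b, gtacagtactgtgatagct, was at 23117 TPM in E10 run 1 and 49.1 TPM in E10 run 2, and at 2178 to 7354 TPM in the other libraries. The matching tag of miR-101a, gtacagtactgtgataact, was at 15601 and 11.4 TPM at E10 and at 2997 to 16640 TPM in the other libraries. Both ended at the base that also ended the 18 nt prefix tags of miR-101a and miR-101b, and both have the extra 5′ base that moves the seed by 1 position. Their slopes were -0.12 ± 0.09 (miR-101b, adjusted p = 0.339) and -0.03 ± 0.10 (miR-101a, adjusted p = 0.871), both by edgeR and past no threshold. With E10 from run 1 alone they were -0.25 and -0.13.

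Within the let-7 family the 19 nt form made up a larger share where base 19 was G or T than where it was A in the same library. The share below is the 19 nt reads of a member divided by its 19 nt and 21 to 24 nt reads, with at least 1830 reads behind each value outside E10 run 2. Of the members with G at base 19, let-7c had 26.2% to 52.6% in run 1 and 11.9% to 31.7% in run 2, and let-7b had 26.5% to 71.9% and 18.9% to 44.5%. Of those with T, let-7i had 63.7% to 91.9% in run 1 and 71.6% to 83.5% in run 2, and miR-98 had 39.5% to 89.8% and 27.7% to 50.6%. These ranges leave out E10 run 2.

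The members with A at base 19 were lower in each of these libraries, although let-7e in run 1 reached levels that let-7c had in run 2. let-7a, which differs from let-7c only at that base, had 1.31% to 11.7% in run 1 and 1.22% to 2.52% in run 2. let-7d had 5.36% to 14.8% and 1.56% to 7.05%, let-7e 2.59% to 34.7% and 2.03% to 5.66%, let-7f 1.03% to 15.7% and 0.458% to 1.44%, and let-7g 0.0317% to 2.04% and 0.0121% to 0.0786%. In each of the 17 libraries other than E10 run 2, the lowest of the 4 members with G or T stood above the highest of the 5 with A. In percentage points the groups came closest in P3 run 2, at 11.9% against 3.20%, and as a ratio in P0 replicate 1 run 1, at 52.5% against 34.7%. In E10 run 2 every member was at or under 0.241%. The same held in all 17 with reads of 20 nt in the denominator, a setting chosen after seeing the data. This grouping was noticed in the values and carries no test. Over the 17 libraries let-7a averaged 61856 TPM and let-7c 174761 TPM, and no let-7a share rested on fewer than 176489 reads.

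Among other abundant miRNAs the share read as short tags ran from nearly none to nearly all. It was taken for 36 miRNAs, namely miR-124 and RefSeq miRNAs with a start of their own, at least 100 reads in each of the 17 libraries and a mean of at least 1000 TPM, as 18 and 19 nt reads over these and the 21 to 24 nt reads, so that reads of 20 nt are in neither class. The median over the 17 libraries was at 50% or more for 9 miRNAs, at 10% to 50% for 7, at 1% to 10% for 15 and under 1% for 5. The highest were miR-323-3p (95.8% to 98.7%), miR-101b (93.6% to 97.8%), miR-382-3p (92.2% to 98.4%) and miR-101a (75.3% to 94.6%). All of these have a RefSeq mature form of 21 nt, and the share was not adjusted for mature length. The lowest were let-7g (0.0207% to 3.01%), miR-127-3p (0.162% to 0.439%), miR-221 (0.154% to 1.58%) and miR-181a (0.298% to 3.51%). For these 36 miRNAs the Wilson intervals reached at most 2.97 points to either side. Reads of 20 nt were a median of 0.825% of the 18 to 24 nt reads of miR-124, but 48.1% for miR-382-3p and 54.4% for miR-185-5p, and 10% or more for 7 of the 36. With these reads in the denominator, a setting chosen after seeing the data, the medians fell to 50.1% for miR-382-3p and 25.2% for miR-185-5p, and 8 miRNAs were at 50% or more, 8 at 10% to 50%, 15 at 1% to 10% and 5 under 1%.

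Related miRNAs could lie far apart. miR-221 and miR-222, which have the same seed and lie close together on chromosome X, had medians of 0.364% and 16.1%, and their ranges of 0.154% to 1.58% and 7.31% to 51.1% did not overlap. miR-127-3p and miR-382-3p, both from a large imprinted miRNA cluster, had medians of 0.276% and 96.4%, or 0.275% and 50.1% with reads of 20 nt in the denominator. miR-103 and miR-107 have the same first 19 bases and could not be told apart, and together they had 7.95% to 64.8%.

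The order of the miRNAs by this share was alike in all libraries but E10 run 2. Across the 36 miRNAs, Spearman's rank correlation between 2 of the 17 libraries was 0.917 to 0.997, with a median of 0.970. The miRNAs are not independent replicates and no p is given. E10 run 2 correlated with the others at 0.221 to 0.371. In that library the share was 1.93% for miR-101b, 1.57% for miR-323-3p, 1.56% for miR-298-5p and at most 0.381% for the remaining miRNAs of the 36. The longer forms of abundant members were read there, since miR-9a-5p was at 54879 TPM and miR-124 at 20149 TPM, short and longer forms together without reads of 20 nt.

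The level of the share, as opposed to its order, differed between libraries. The median over the run 1 libraries was above that over run 2 without E10 for 33 of the 36 miRNAs. Within run 1 the libraries fell at 2 levels for many miRNAs. The 18 nt tag of miR-124 made up 38.3% at E10, 44.7% in P0 replicate 2 and 44.2% at P3, but 79.1% to 96.0% in the other 6 run 1 libraries, while the run 2 libraries other than E10 stood at 24.4% to 61.3%. For the 18 nt tag of let-7i the corresponding values were 19.2%, 12.7%, 14.8%, then 56.4% to 77.7%, and 11.1% to 23.7% in run 2. In 19 of the 36 miRNAs these 3 run 1 libraries were all below the other 6, a split picked from these same values. The 18 nt tag of miR-101a-3p went the other way. It was at 90.3% at E10, 94.5% in P0 replicate 2 and 93.0% at P3, against 75.1% to 87.5% in the other 6. How many of the 36 miRNAs went this way was not counted. No label separates the 3 libraries from the other 6, the P0 tissue samples fall on different sides, and the cause was not tested.

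The 3′ ends of the short tags were concentrated on a few bases. In the 17 libraries, 28.9% to 63.7% of short reads ended in G, against 3.67% to 19.5% of 21 to 24 nt reads. The last 3 bases were ATG in 15.8% to 45.4% of short reads, where 0.937% to 9.97% of 21 to 24 nt reads had this end. ATG ends both the 19 nt let-7c tag and the 18 nt miR-124 tag. Ends in GCT, that of the 19 nt let-7i tag and the miR-101b tags, were at 3.59% to 30.1% in run 1 and 11.4% to 18.6% in run 2 without E10, and in E10 run 1 they were more common than ATG (30.1% against 15.8%). Ends in GTG, that of the let-7b tag, were at 1.16% to 6.94% in run 1 and 6.02% to 18.9% in run 2 without E10. Ends in ATA, that of the let-7a, let-7d, let-7e and let-7f tags, were at 1.76% to 10.5% in run 1 and 1.80% to 3.07% in run 2 without E10.

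The base that follows the short tag in its most abundant longer tag was G for 51.0% to 74.6% of prefix reads in the 17 libraries. Weighted by the reads of the longer tags, G followed in 36.1% to 67.5%. Among RefSeq miRNAs with at least 100 reads in each of these libraries, the median share of the 19 nt form was 8.77% where the next base was G (48 miRNAs), 5.93% where it was C (22), 5.13% where it was A (19) and 2.27% where it was T (41). By the last base of the tag itself it was 13.0% for C (19 miRNAs), 5.60% for G (42), 5.26% for T (41) and 1.80% for A (28). For the 18 nt form the order was another one, with medians of 14.1% for C, 3.32% for T, 2.50% for A and 1.57% for G as the last base and 6.24% for G, 5.21% for C, 3.79% for T and 0.754% for A as the next base. For the 19 nt form the quartiles overlapped, at 1.96% and 31.9% for G as the next base and 0.601% and 17.8% for T, and these values are a description without a test.

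In E10 run 2 the ends were others. There 51.9% of short reads ended in A, 10.1% in G and 0.297% in ATG, and 32.5% ended in CCA, the bases that close every mature transfer RNA. Ends in CCA held 0.546% to 4.65% of short reads in the other 17 libraries. The base after the tag was G for 13.2% of prefix reads in that library.

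Prefix tags began with T more often than the other short tags. Here a tag counted as a prefix tag when it was one in both runs of the tissue sample, and the rest include those that were prefix tags in 1 run only. By definition a prefix tag has the first base of its longer tag. The difference is therefore bound to the first bases of the 21 to 24 nt tags, and its test describes the 2 classes only. Counted over distinct tags, the share beginning with T was 38.9% ± 8.83 (SD, n = 9 tissue samples) among prefix tags and 25.1% ± 7.16 among the rest, a difference of 13.8 points that had the same sign in 9 of 9 tissue samples (exact two-sided sign-flip permutation p = 0.00391, the smallest that 9 samples allow). The differences ran from 7.06 points at E10 to 20.7 points at E17. Both groups were lowest in the embryonic samples: prefix tags were at 24.2% at E10 and 24.1% at E13, then 38.3% to 47.2%, and the rest at 14.6% to 17.6% from E10 to E17, then 24.3% to 32.6%. Weighted by reads, T began 48.8% to 84.8% of short reads in the 17 libraries and 19.9% in E10 run 2, against 54.6% to 87.5% of 21 to 24 nt reads in the 17. The GC content was 50.2% ± 2.67 in prefix tags and 51.4% ± 2.59 in the rest, lower in prefix tags in 8 of 9 samples (difference -1.20 points, exact p = 0.0195), and this difference shrank to -0.215 points with at least 10 counts required in each run (exact p = 0.754, n = 9). It was -1.90 points in run 1 alone (exact p = 0.00391) but missed the threshold in run 2 alone (-0.112 points, exact p = 0.820) and with 18 nt tags alone (-1.03 points, exact p = 0.0586).

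The short tags that were no prefix of a 21 to 24 nt tag were many but held few reads. Of the tags of a tissue sample, 6.06% to 8.53% were the 5′ part of a 20 nt tag only, 0.833% to 2.22% of a tag over 24 nt only, and 4.44% to 14.1% were the 3′ part of a 20 to 24 nt tag. A further 3.00% to 6.79% lay inside another longer tag, and 1.47% to 4.70% differed from a prefix tag by 1 base. None of these relations was found for 3.80% (P3) to 11.7% (E17) of tags, and these held 0.0304% to 0.293% of short reads. The 3′ part class was largest at E10, with 14.1% of tags and 3.32% of short reads in run 2.

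By comparison with RefSeq, which gave 692 distinct mature sequences, few short tags carried most of the reads. The 5′ part of a RefSeq mature miRNA accounted for 418 to 608 tags of a tissue sample, or 2.23% to 6.73%. As a mean of both runs it held 56.9% (E13) to 73.3% (P14) of short reads in the tissue samples other than E10, and at E10 58.4% in run 1 and 3.05% in run 2. Tags elsewhere in a RefSeq hairpin held 6.26% (P7) to 8.96% (E13) in the tissue samples other than E10, as a mean of both runs, and at E10 22.7% in run 1 and 0.794% in run 2. Tags without a match, among them those of miR-124, held 18.9% (P14) to 32.3% (E13) in the tissue samples other than E10, and at E10 17.0% in run 1 and 95.2% in run 2. The RefSeq table used is not complete, so that a tag without a match may still belong to a known miRNA. Among its sequences of 21 nt or more, miR-99a-5p, miR-30d-5p, miR-144-3p and miR-486-5p were also not found.

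The stage trend of single tags was fitted by edgeR on counts summed over both runs, for all lengths together, and 7315 of the 53265 short tags had enough reads to be tested (a minimum of 10 counts in 2 or more of the tissue samples). Of these, 533 rose (7.29%) and 784 fell (10.7%) at an adjusted p under 0.05, against 8.07% rising and 12.0% falling of all 36485 tags tested and 9.10% and 11.6% of the 21 to 24 nt tags, so that short tags changed about as often as the background. Among tags that were prefix tags in both runs of at least 1 tissue sample 482 of 5770 rose (8.35%) and 536 fell (9.29%), and among the rest 51 of 1545 rose (3.30%) and 248 fell (16.1%). With the run as a block over the 18 libraries, 844 rose and 1283 fell, and 512 and 767 of these were also called without the block. That fit counts the 2 technical runs of a tissue sample as separate libraries, so that its n exceeds the 9 distinct tissue samples and its p-values are too small. The counts moved by over 1.5 times without some tissue samples: 249 rose without E10, 266 without P14, 313 without P7 and 347 without P28, and 362 fell without P28, 372 without P7, 411 without P14, 430 without E10 and 437 without E13. In these fits without a tissue sample 6466 to 7036 short tags were tested. Other choices also moved the counts by over 1.5 times, on other numbers of short tags tested. They were 114 rising and 106 falling of 4573 in run 1 alone, 334 and 338 of 4195 in run 2 alone and 856 rising of 7315 with DESeq2. With a looser filter on low counts 1822 rose and 8331 fell of 53265, so that raw counts do not compare directly with the main fit. Shares over all tags are given for the main fit only. Fewer cells of a type and less RNA per cell cannot be told apart in such bulk tissue.

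Lists of miRNAs with a known place in brain development were looked at next. Calls were rises for miR-128 and miR-138 of the neuron list and for maturation miRNAs. They were falls for progenitor miRNAs, whose members are known from proliferating cells. Of all 36485 tags tested 8.07% rose and 12.0% fell. Of 8 short tags of the neuron list 4 rose, the 18 and 19 nt tags of miR-128 (slopes 1.02 ± 0.21 and 1.02 ± 0.21) and miR-138 (0.79 ± 0.13 and 0.65 ± 0.13). The tags of miR-124 (0.23 ± 0.16 and 0.10 ± 0.22) and miR-9a-5p did not pass the test, and the slopes of miR-9a-5p were negative (-0.16 ± 0.11 and -0.19 ± 0.12). The remaining member, miR-132-3p, had no reads of 18 or 19 nt. All 6 tags of miR-29a, miR-29b and miR-29c, miRNAs that increase in maturing brain, rose with slopes of 0.64 to 1.24. Of 11 tags of the progenitor list 9 fell, those of miR-18a, miR-20a, miR-92a and miR-130b and the 18 nt tag of miR-17-5p, with slopes of -1.23 to -0.63. The 19 nt tags of miR-17-5p (-0.69 ± 0.24, adjusted p = 0.0571, edgeR) and miR-19b (-0.37 ± 0.43, adjusted p = 0.572, edgeR) did not pass. The progenitor count was 4 of 10 tags in run 1 alone, 2 of 9 in run 2 alone, 5 of 11 without P14 or P28, and 6 without E17, P0 replicate 2, P3 or P7, and the miR-29 count was 3 of 6 without P28.

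The other lists served as a check of the tissue. In the oligodendrocyte list the 2 tags of miR-338-3p rose (0.57 ± 0.14 and 0.62 ± 0.15) and those of miR-219a-5p had slopes of -0.20 ± 0.14 and -0.16 ± 0.14. No tag of this list rose in run 1 alone, 1 rose in run 2 alone and 1 without E10, and without P28 none rose and 1 fell. None of 33 tags of the broadly expressed list passed, with a median slope of 0.07 against -0.02 over all tags, while 1 rose with the run as a block and 1 fell with DESeq2. miR-124 was at 14774 TPM or more in each of the 17 libraries, in reads of 18, 19 and 21 to 24 nt together. Summed levels of miRNAs of other tissues are given without a test. The 4 mesenchyme miRNAs summed to 33740 TPM at E13 against 395 to 3342 later. Most of this sum was their most abundant member, miR-199a-3p, at 38620 TPM in E13 run 1 and 27421 in E13 run 2. At E10 miR-199a-3p was at 34874 TPM in run 1 and 14731 in run 2. Not every member was highest early, as miR-143-3p was highest in P14 run 1, at 3183.5 TPM. Of 3 listed miRNAs of blood cells only miR-451 was found in the RefSeq table at 21 nt or more. It was at 464 TPM in E10 run 1 and 1532 in E10 run 2, 88.7 at E13 and 26.8 to 62.5 later. The muscle list summed to 79.9 TPM at E10, 429 at E13 and 12.8 to 1645 later. None of the 6 mesenchyme tags or 2 blood tags passed the test (with the run as a block 1 mesenchyme tag rose and 2 fell, with E10 from run 1 alone 1 mesenchyme and 1 blood tag fell, and 1 mesenchyme tag fell with DESeq2, with library totals in place of TMM and without E17), 2 of 4 muscle tags, both of miR-206, rose (none without E10, E17, P7, P14 or P28 or in run 1 alone, but 4 with the run as a block, in run 2 alone or without E13), and miR-133a was at 0 to 2.53 TPM. The part of these tissues in the trends was not tested.

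The named changes among prefix tags were those with the largest slopes of at least 10 TPM on average and of 1 sign in both runs, where an 18 nt and a 19 nt tag of the same start counted once as the more abundant one, of 41 rising and 69 falling candidates. A 19 nt tag of miR-219a-2-3p, which is produced in myelinating oligodendrocytes, was at 0.061 to 85.7 TPM up to P3 and then at 576 and 95.2 TPM at P7, 1094 and 230 at P14 and 3270 and 687 at P28 (run 1 and run 2). Each library from P7 on was above all earlier ones. Its slope was 1.08 ± 0.22 (adjusted p = 0.00634, edgeR), and that of its most abundant longer tag, 22 nt, was 0.21 (adjusted p = 0.543, edgeR), whereas the test of the difference in trend between its short and longer forms was not passed (0.48 ± 0.24, adjusted p = 0.363, edgeR). A 19 nt tag of miR-128, cacagtgaaccggtctctt, that begins at base 2 of the mature miRNA rose from at most 4.48 TPM before birth to 12.9 to 55.7 TPM from P7 on (slope 1.06 ± 0.23, adjusted p = 0.0073, edgeR), a call lost in run 1 alone (adjusted p = 0.171). In run 1 alone the slope of this miR-128 tag was 0.78. Its most abundant longer tag, 21 nt, rose too, with a slope of 1.04 (adjusted p = 0.0242, edgeR). The trends of its short and longer forms did not differ detectably (0.02 ± 0.11, adjusted p = 0.909, edgeR). The remaining 3 rising prefix tags had no RefSeq match and slopes of 1.04 to 1.18, and the call of the lowest was lost without P28 (slope 0.79, adjusted p = 0.0747, edgeR).

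The 18 nt tag of miR-130b fell from 963 TPM in E10 run 1, 2285 and 303 TPM at E13 and 869 and 135 TPM at E17 to 9.10 and 1.27 TPM at P28, with a slope of -1.18 ± 0.19 (adjusted p = 0.00212, edgeR). It was at 0.426 TPM in E10 run 2, and run 1 was the higher run in every tissue sample. Its 22 nt longer tag had a slope of -1.59. An 18 nt tag of miR-363-3p that begins at base 2 of the mature miRNA, attgcacggtatccatct, was at 101 TPM in E10 run 1 and 0 in run 2, at 68.5 and 23.2 TPM at E13 and at 0.60 and 0 TPM at P28 (slope -1.19 ± 0.17, adjusted p = 0.00134, edgeR). Of the 3 unmatched prefix tags that fell, 1 had 453 TPM in E10 run 2 and at most 1.99 TPM elsewhere, and its slope of -1.46 became -0.07 with E10 taken from run 1 alone. Another had 393 and 31.6 TPM at E13 and at most 10.7 TPM elsewhere, and its slope of -1.20 became 0.03 without E13. Its call was also lost without P3, P14 or P28, in run 1 alone and with E10 from run 1 alone, where the slope stayed at -1.23 to -1.14. The third had 457 and 166 TPM at E13 and at most 5.89 TPM elsewhere, and its call was lost without E13 (slope -0.38).

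Among the other short tags, 6 falling and no rising tags met the same conditions. The 5 with the largest falls had slopes of -0.94 to -0.57 and means of 11.8 to 31.4 TPM, and none matched a RefSeq miRNA. In run 1 alone 4 of these 5 calls were lost at slopes of -1.34 to -0.57, without E10 2 at -0.81 and -0.74, and without P28 2 at -0.63 and -0.51. An 18 nt tag was at 66.9 and 248 TPM at E10, 16.5 and 60.1 at E13, 20.7 and 66.4 at E17 and 0.900 and 2.77 at P28, with run 2 as the higher run at each of these stages.

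The last comparison asked whether single miRNAs became shorter or longer with stage. Tags were grouped into families by their first 18 bases, and the trend of the short class was compared with that of the 21 to 24 nt class in 2151 families. Of these, 4 shifted towards short tags (0.186%) and 1 towards longer tags (0.0465%) at an adjusted p under 0.05 in edgeR, while 302 were at an unadjusted p under 0.05. With the run as a block 5 and 4 passed, with DESeq2 18 and 8, and with E10 from run 1 alone 7 and 5. No family passed in either direction when only tags in both runs of a tissue sample were counted, with 18 nt tags as the short class or in run 2 alone, and none shifted towards short tags in run 1 alone. The slope was above 0 in 81.1% of families, with a median of 0.15 on the log2 scale per stage step, but in 63.5% with E10 from run 1 alone (median 0.04) and in 61.2% without E10 (median 0.03). Leaving out 1 tissue sample gave 1 to 9 shifts towards short tags (9 without E13, 2 without E10 or P28, and 1 without E17, P0 replicate 2, P7 or P14) and 0 to 8 towards longer tags (8 without E13, 3 without P0 replicate 1, 2 without E10 and 0 without P28).

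Most of the families that passed had few short reads. miR-301b-3p had a slope of 1.24 ± 0.16 (adjusted p = 0.00207, edgeR) from 163 short and 17080 longer reads, with a short share of 0.323% and 0.451% at E10, 1.31% and 1.37% at E13 and 5.26% to 29.4% at P0, and later values that rest on few reads. Its call was lost in run 1 alone (slope 1.44, adjusted p = 0.0524), in run 2 alone (slope 1.15, adjusted p = 0.275) and with only tags in both runs (slope 1.40, adjusted p = 0.329, all edgeR). The start of miR-181b-1-3p, ctcactgaacaatgaatg, went from 0.889% and 0.619% at E10 to 20.5% and 11.3% at P28 (slope 0.66 ± 0.13, adjusted p = 0.0364, edgeR, 322 short reads), and this call was lost without E10, E17, P0 replicate 2, P7, P14 or P28, where the slope stayed at 0.63 to 0.68. An unmatched family with 4903 short and 216573 longer reads went from 0.676% and 0% at E10 to 8.58% and 8.12% at P28, and another, with a slope of 0.81 ± 0.14, had 137 short and 486 longer reads. The family that shifted the other way, also unmatched and with 51 longer reads in all, was at 99.8% short in both runs at E10 and at 81.1% and 85.1% at P28 (slope -0.98 ± 0.13, adjusted p = 0.00207, edgeR). None of the families of the marker lists passed, the lowest adjusted p being 0.224 for miR-124 (slope 0.39 ± 0.12, edgeR).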

How the data were processed

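Small RNA from 9 tissue samples was sequenced in 2 technical runs each, which gave 18 libraries. The deposited files hold whole-number counts of identical reads per sequence tag. Before depositing these counts, the authors trimmed adapters, removed low-quality reads and ligation contaminants, kept reads of at least 18 nt and collapsed identical reads. No molecular identifiers are mentioned, so a count is of reads, not of molecules. Run 1 and run 2 differ in the longest tags kept, up to 39 nt, so that TPM, the count per 1000000 clean reads of a library, has a different base in each.

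Tags of 18 and 19 nt with counts in both runs of a tissue sample were the members. A prefix tag equals the first bases of a tag of 21 to 24 nt in the same library. Stage trends of tags with 10 or more counts in 2 or more of the tissue samples were fitted on run sums, for all lengths together, with edgeR 4.0.16 (quasi-likelihood test, TMM scaling, stage order as a number, R 4.3.3) and adjusted by Benjamini-Hochberg over all tags. A slope is a log2 change per stage step, with its standard error. The shortening trend compared the short with the longer class in families with a common start of 18 nt, at least 50 reads in at least 5 tissue samples and at least 20 short reads. Shares were tested by exact permutation over tissue samples (Python 3.11.15, scipy 1.17.1). Alternatives were DESeq2 1.42.0, other filters, lengths and scalings, single runs, and leaving out each tissue sample.

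The runs of a tissue sample are technical, and only P0 had 2 tissue samples, so p-values rest on the spread around a linear trend. Same-numbered runs deviated together (622 short tags, 36 pairs, r = 0.15 to 0.91 across tags on log2 of TPM + 1), and the runs are labelled as such. Named tags were the 5 largest slopes per direction and class at a mean of at least 10 TPM with 1 sign in both runs, 18 and 19 nt tags of the same start counting once, and the 3 most abundant tags of each tissue sample. The members, marker lists and rules were chosen with earlier results of these data known. Scripts were tested on simulated data. miRNA names are from exact matches to RefSeq (GRCr8, 692 distinct mature sequences), except miR-124, which was named by the start of the miRNA in the study's PCR primer for the mouse miR-124.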

Additional observations from a re-analysis of the deposited data

Results flagged for a closer look

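Short tags counted in 1 run only were left out of the members and were examined as data outside the comparisons. They numbered 26484 to 153344 per library and took 0.256% to 2.68% of clean reads. A count of 0 would allow up to 1.81e-05% to 6.12e-05% (3 counts), but these tags were selected for being counted, so that their sum had to exceed this limit. No library of P0 passed Dixon's criterion in any of 14 measures, a criterion that only a very distant value passes among 4 libraries. The short share of P0 replicate 1 run 1, at 33.5%, stood beside 15.7% to 22.5% in the other P0 libraries.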

How the results depend on the processing

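The first base difference, which is bound to the definition of a prefix tag, kept its direction and side of the threshold under every alternative run. The GC difference lost its call with 18 nt tags alone (-1.03 points), with 10 counts in each run (-0.215) and in run 2 alone (-0.112). The run difference of the short share lost its call with 19 nt tags alone (3.11 points). The prefix share trend lost its call when the longer tag needed more reads (r = 0.28), in run 1 alone (0.48) and, in an alternative chosen after seeing the data, with E10 from run 1 alone (0.63), as well as without E10 and P28 (0.67) and, by its adjusted p, without E10 (0.66). The prefix run difference, which passed no test, turned to -12.0 points when the longer tag needed more reads and to -0.238 without E10 (range -0.238 to 1.12 leaving out 1 tissue sample), and the short share trend to r = -0.00458 without E10 (range -0.00458 to 0.62).

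With the run as a replicate block, 844 short tags rose and 1283 fell, and 5 and 4 families shifted to short and longer tags. Run 1 alone gave 114 and 106 of 4573 tags tested and 0 rising families, and run 2 alone 334 and 338 of 4195 tags and 0 and 0 families. DESeq2 gave 856 rising of 7315 tags and 18 and 8 families, and a looser filter 1822 and 8331 of 53265 tags. The use of 18 nt tags or tags in both runs alone gave 0 and 0 families each. With E10 from run 1 alone 7 and 5 families passed. The share of families with a slope above 0 was taken without E10 or its run 2 library after seeing the data. Leaving out 1 tissue sample gave 249 to 512 rising and 362 to 688 falling tags of 6466 to 7158 tested, and 1 to 9 and 0 to 8 families.

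Of single tags, miR-101a turned to 0.00117 (block), 0.17 (run 2), 0.00204 (without P14) and 0.000577 (without P28; range -0.0925 to 0.00204), miR-101b to 0.11 (run 2), let-7c to -0.0441 (without E10, range -0.0441 to 0.28) and an unmatched tag to 0.0297 (without E13, range -1.43 to 0.0297). The cause was not tested. Depth limits the tag trend, since 45950 short tags were too rare to be tested.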
